A study of Drosophila melanogaster with 6 samples.

Results

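Among the 13517 genes listed for these muscle-enriched larval lysates, 51 encode proteasome subunits, their paralogs, or proteins that assemble or regulate the proteasome. They were chosen by symbol: genes whose names begin with Prosalpha, Prosbeta, Rpt or Rpn, plus Pomp, PI31, REG, cnc and maf-S. By role they comprised 6 core alpha, 7 core beta, 6 Rpt and 12 Rpn subunits, together 31 canonical subunits, with 15 testis-type paralogs (names with a T or R suffix) and 5 assembly factors and regulators. In 3 samples, Mhc-Gal4 drove UAS-twinstarRNAi against twinstar (tsr), the gene for the actin-severing protein cofilin. In the other 3, Mhc-Gal4 drove UAS-mCherryRNAi, a control against a fluorescent protein gene that flies lack. Mhc-Gal4, carried by both groups, uses the promoter of the muscle myosin heavy chain gene, while the lysates were enriched for muscle and could hold other cells. Each sample pooled 7 to 10 larvae, grown to late in the third instar, and was labelled a biological replicate, although a tissue field of the labels names adult body wall muscle. Levels are given as scaled counts: a gene's reads, scaled by the size factor of their sample.

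The proteasome is the protease that degrades proteins tagged with ubiquitin. Its barrel-shaped core is built of alpha rings, which gate the entrance, around beta rings, which hold the catalytic sites. A regulatory particle caps the core: its Rpt subunits form a ring of ATPases that unfold substrates, and its Rpn subunits bind ubiquitin, remove it and hold the particle together. In flies, the long CncC form of the cnc product, a relative of vertebrate Nrf1 and Nrf2, works with the small Maf protein maf-S and can raise proteasome gene transcription. Muscle relies on the proteasome for turnover of its contractile proteins.

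The libraries held between 37138289 and 41900871 reads in genes, and between 12035 and 13258 genes above 0. The targeted gene tsr had 6966, 7070.2 and 5035 scaled counts in tsr knockdown samples, against 39133, 29266 and 25816 in control samples. Every tsr knockdown sample lay below every control (log2 difference -2.30, SE 0.21, limma adjusted p = 0.00525). Of 11720 genes tested, 823 were lower in tsr knockdown samples and 537 higher at a limma adjusted p under 0.05. That split depended on the scaling, with 640 lower and 698 higher after upper-quartile scaling, and 2579 lower and 186 higher after rescaling to the muscle markers. Single samples also moved it, with 41 genes higher without tsr knockdown replicate 1 and 2222 without control replicate 2. The 16 muscle marker genes summed to 8590754, 6369089.7 and 9053119.8 scaled counts in tsr knockdown samples and to 5521376, 3992669.9 and 3750124 in controls. All 16 had a log2 difference above 0, with a median of 0.66, and 0 of them passed the test. The 6 epidermal markers summed to 2113833, 1939259 and 1275408 in tsr knockdown samples and 4083015, 4741673 and 4938432 in controls, and 3 of them fell. Of 12 ecdysone-response genes 3 fell and 1 rose, and their sums were 21014, 26253 and 26760.1 in tsr knockdown samples against 48332, 81195 and 60074 in controls. Among other lists, 3 of 6 neuronal markers rose, 2 of 5 hemocyte markers fell, 1 of 7 fat body markers fell and 1 rose. Of the gut genes 0 of 6 tested passed, and the list summed to 1079, 32574 and 772 in tsr knockdown samples and 3249.9, 1201 and 34598 in controls, so tsr knockdown replicate 2 and control replicate 3 stood apart. Of the salivary glue genes 0 of 5 passed, with all 5 log2 differences below 0, a median of -5.09, and sums of 19.9, 10456 and 46.5 in tsr knockdown samples and 98773, 38996 and 29.8 in controls. Control replicates 1 and 2 and tsr knockdown replicate 2 thus held most of the glue counts. No muscle or epidermal marker was at 0 in any sample, and of the ecdysone-response genes Edg78E was at 0 in tsr knockdown replicate 1. Control replicate 2 stood apart from the other two controls in its testis and ecdysone-response genes, so the subunit and paralog counts are also given without it. The part of these marker differences in the results on proteasome genes was not tested. In a bulk lysate, fewer cells of a type and less RNA per cell cannot be told apart.

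All 31 canonical subunits fell in tsr knockdown samples. Each passed the limma test, whereas 7.02% of all tested genes were called lower. edgeR on recovered reads and DESeq2 also called all 31, beside 6.65% and 13.4% of all tested genes. In each subunit the groups did not overlap, which held in the same direction for 19.6% of all tested genes. Mean levels in tsr knockdown samples were 40.8% to 58.9% of the control mean, with a median of 45.3%. The log2 differences ran from -1.31 to -0.78 with a median of -1.15, beside a median of 0.06 over all tested genes. A log2 difference at or below that of the least changed subunit was found in 9.51% of all tested genes. Summed over the 31 genes, scaled counts were 127928, 150578 and 171827 in tsr knockdown samples and 310610.3, 352789 and 320025 in controls. The sums averaged 150111 ± 21953 in tsr knockdown samples and 327808 ± 22141 in controls (SD, n = 3 each), a level of 45.8% of control. As a share of each library, the 31 genes took 3150.1, 4178 and 3958 CPM (counts relative to all reads in genes) in tsr knockdown samples, against 7363, 8473 and 8461 in controls.

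**Figure D1:**
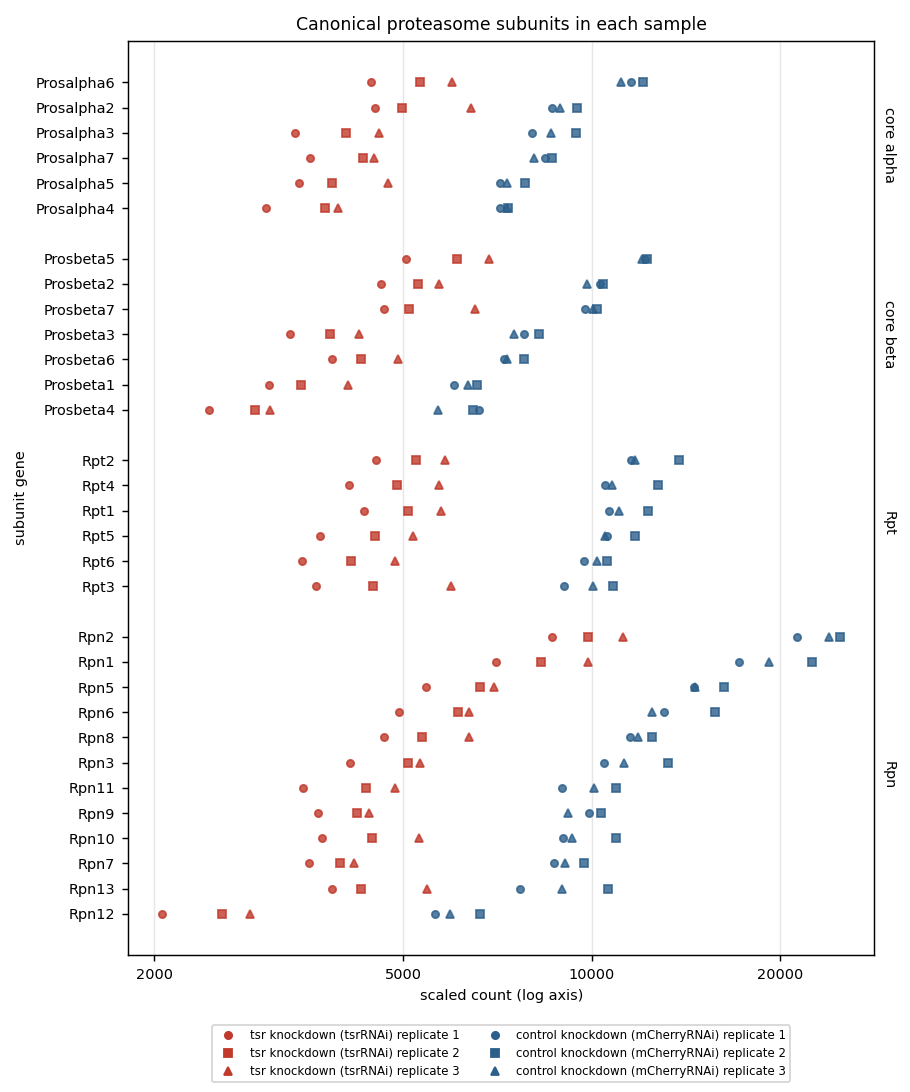
Scaled counts (log axis) of the 31 canonical proteasome subunits, grouped by role, with 1 point for each of the 3 tsr knockdown (red) and 3 control (blue) samples. In each gene every red point lies left of every blue point, and tsr knockdown replicate 1 is the leftmost of its group in 31 of 31 genes.

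The core alpha subunits form the gated outer rings of the core. Prosalpha6 (FBgn0250843, 2L:10221351-10222546 in dm6 coordinates) changed most of the 6, with 4439, 5315 and 5969 scaled counts in tsr knockdown samples and 11535, 12079.7 and 11123 in controls. Every tsr knockdown sample lay below every control, and the log2 difference was -1.15 (SE 0.13, limma adjusted p = 0.0086). Prosalpha2 (FBgn0086134, 3R:12431321-12432556) changed least, with 4497, 4977 and 6421 in tsr knockdown samples against 8639, 9469.8 and 8889.6 in controls. Its tsr knockdown replicate 3 came nearest to the controls, without reaching them, and the log2 difference was -0.78 (SE 0.15, limma adjusted p = 0.0299). The Prosalpha2 call held in 2 of the 6 fits that leave out 1 sample. It was lost without tsr knockdown replicate 1 or 2 and without control replicate 1 or 3 (adjusted p from 0.0546 to 0.113). The remaining alpha subunits, Prosalpha3, Prosalpha4, Prosalpha5 and Prosalpha7, had log2 differences of -1.13, -1.04, -0.91 and -1.03. The alpha median was -1.03. Another alpha subunit gene was not analysed here.

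The beta subunits include the proteolytic sites of the core. The genes for the catalytic subunits, Prosbeta1 (caspase-like activity), Prosbeta2 (trypsin-like) and Prosbeta5 (chymotrypsin-like), fell, with log2 differences of -0.85, -0.98 and -1.03 (limma adjusted p = 0.0164, 0.0086 and 0.0115). Prosbeta4 (FBgn0032596, 2L:16731180-16732133), a structural subunit, changed most of the 7. It had 2449, 2893 and 3064 scaled counts in tsr knockdown samples, against 6606, 6454 and 5688 in controls. The groups were well apart, at a log2 difference of -1.16 (SE 0.12, limma adjusted p = 0.00778). Prosbeta6 (FBgn0002284, 3L:16609400-16610418), also structural, changed least, with 3843, 4278 and 4904 in tsr knockdown samples and 7236, 7779 and 7313 in controls. Here too the groups did not overlap, at a log2 difference of -0.78 (SE 0.12, limma adjusted p = 0.016). The beta median was -0.98. Of the 7 beta calls, 4 held without tsr knockdown replicate 1, 4 without tsr knockdown replicate 2 and 3 without control replicate 3. In those fits, 1.23%, 2.23% and 2.14% of all tested genes were called lower.

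The Rpt ATPases drive unfolding and feed substrates into the core. Rpt6 (FBgn0020369, X:21316052-21317663) had the largest log2 difference of the 31 subunits. It measured 3447, 4125 and 4841 scaled counts in tsr knockdown samples and 9698, 10556 and 10175 in controls, and the highest tsr knockdown sample was below the lowest control by a wide margin. The log2 difference was -1.31 (SE 0.14, limma adjusted p = 0.00804), so tsr knockdown samples averaged 40.8% of control. Rpt3 (FBgn0028686, X:11125101-11126785) changed least of the 6 ATPases, with 3629, 4470.1 and 5957 in tsr knockdown samples and 9028, 10814 and 10039 in controls. The Rpt3 values were the most spread of the subunits within the tsr knockdown group, and the log2 difference was -1.11 (SE 0.20, limma adjusted p = 0.0238). Rpt1, Rpt2, Rpt4 and Rpt5 had log2 differences of -1.17, -1.25, -1.22 and -1.30, and the Rpt median was -1.24.

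Among the 12 Rpn subunits, Rpn12 (FBgn0028693, 3L:16583028-16584022), a lid subunit, changed most. Its scaled counts were 2058, 2564 and 2839.8 in tsr knockdown samples against 5624, 6633 and 5939.6 in controls, without overlap (log2 difference -1.30, SE 0.15, limma adjusted p = 0.0086). The ubiquitin receptor Rpn13 (FBgn0033886, 2R:13958545-13960404) changed least, with 3847, 4285 and 5449.6 in tsr knockdown samples and 7667, 10598 and 8972 in controls. Control replicate 2 was the highest Rpn13 value, and the groups were still separate (log2 difference -1.01, SE 0.18, limma adjusted p = 0.0254). Rpn11, the enzyme that strips ubiquitin chains from substrates, had a log2 difference of -1.25, and Rpn10, also a ubiquitin receptor, one of -1.13 (limma adjusted p = 0.0108 and 0.0145). Rpn1 and Rpn2, large subunits of the base, had log2 differences of -1.23 and -1.24. Of the other lid subunits, Rpn3, Rpn5, Rpn6, Rpn7, Rpn8 and Rpn9 had log2 differences of -1.27, -1.26, -1.24, -1.24, -1.14 and -1.26. The median of all 12 was -1.24.

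**Figure D2:**
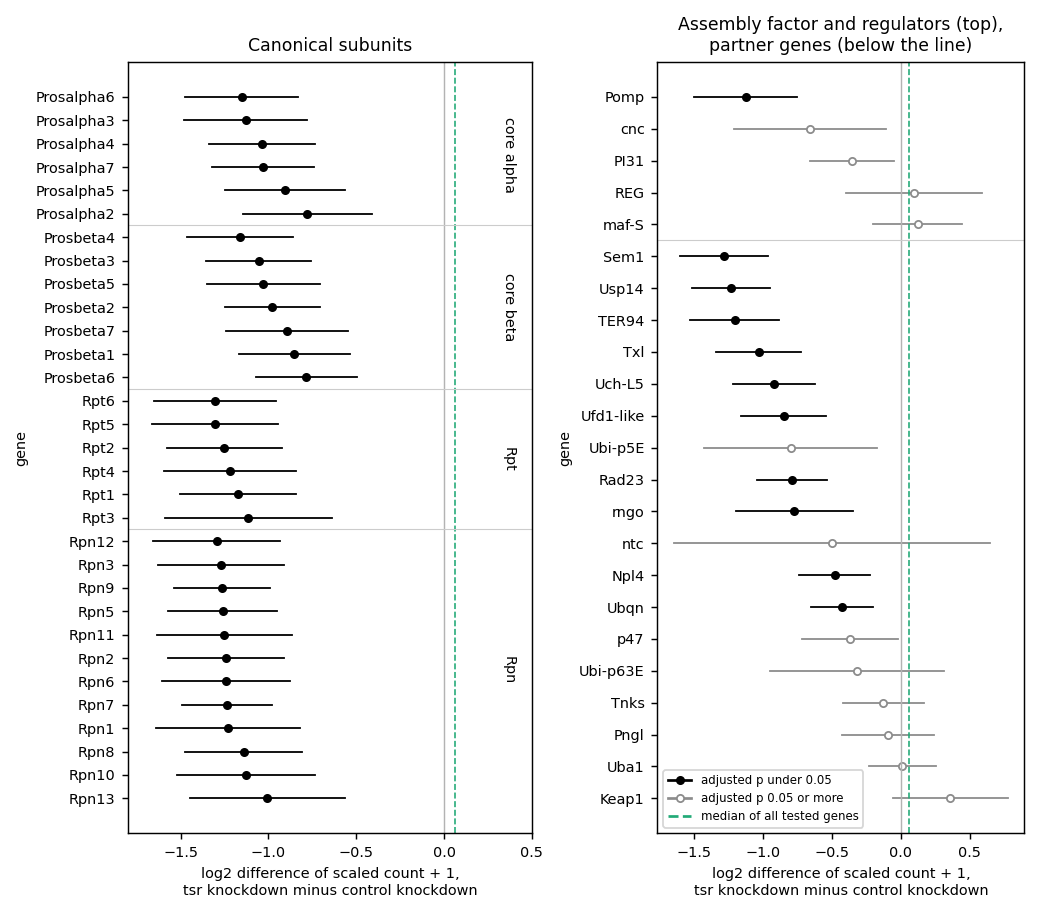
Log2 difference in scaled count (tsr knockdown minus control knockdown, 1 added to each value) with its 95% limma interval, for the 31 canonical subunits (left) and for the assembly factor, regulators and 18 partner genes (right). Filled points passed an adjusted p of 0.05, the dashed line is the median of all tested genes at 0.06, and all 31 subunits lie left of it.

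The 95% intervals of 29 of the 31 log2 differences covered the median of the 31. These intervals hold variation between samples that the subunits shared, so the coverage does not show that the subunits changed equally. By particle, the 13 core genes summed to 50.9% of control in tsr knockdown samples and the 18 regulatory particle genes to 43.1%. The median log2 difference was -1.03 for the core and -1.24 for the regulatory particle. Within a sample, the mean log2 level of regulatory particle genes exceeded that of core genes by 0.173, 0.206 and 0.202 in tsr knockdown samples, against 0.351, 0.510 and 0.426 in controls. These values did not overlap between the groups and are given as a description.

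Per kilobase of exon, which allows levels to be set between genes, tsr knockdown means ran from 2435 scaled counts per kilobase (Rpn9) to 5759 (Prosalpha2), with a median of 3338, and control means from 5429.8 scaled counts per kilobase (Rpn13) to 10822 (Prosalpha6), with a median of 7591. Across the 31 genes, the log2 level per kilobase in tsr knockdown samples followed that in controls (Pearson r = 0.904, a description over genes that share libraries). The log2 difference was more negative for longer genes (Spearman rho = -0.58 with exon bases) and less negative for genes high per kilobase in controls (rho = 0.43). These rank correlations are also descriptions over the same 31 genes and 6 libraries. Core genes had at most 1215 exon bases (Prosbeta7), and most regulatory particle genes were longer. Most core genes were also high per kilobase in controls. Both correlations thus cannot be told apart from the difference between the particles. The shortest and longest gene of each class differed in no single direction. Within the Rpn class, Rpn12 with 995 exon bases had -1.30 and Rpn2 with 3412 had -1.24. Within the alpha class, Prosalpha2 with 920 had -0.78 and Prosalpha4 with 1176 had -1.04. Within the beta class, Prosbeta4 with 815 had -1.16 and Prosbeta7 with 1215 had -0.90. Within the Rpt class, Rpt6 with 1404 had -1.31 and Rpt5 with 1627 had -1.30. Length was not tested within a class. The 31 genes lie on several chromosome arms, with 4 on 2L, 9 on 2R, 5 on 3L, 9 on 3R and 4 on X. Part of the exon sequence was shared with another gene in 12 of them, at most 15.7% (Rpn9), and whether counting used strand is not given in the sources used here.

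In scaled counts, the subunits kept much the same order of samples within a group. In tsr knockdown samples, replicate 1 was the lowest and replicate 3 the highest for 31 of 31 subunits. In controls, replicate 2 was the highest for 30 of 31, replicate 1 the lowest for 22 and replicate 3 the lowest for 9. This order depended on the scaling. As a share of each library, the summed subunits were higher in tsr knockdown replicate 2 (4178 CPM) than in replicate 3 (3958 CPM). Control replicates 2 and 3 were then close, at 8473 and 8461 CPM. How many of all tested genes had the same order was not counted. The number of calls changed when 1 sample was left out, for the subunits and for all tested genes. Without tsr knockdown replicate 1, 2 or 3 the number of subunits called lower was 21, 22 and 31, beside 1.23%, 2.23% and 4.17% of all tested genes. Without control replicate 1, 2 or 3 it was 30, 31 and 21, beside 4.94%, 7.78% and 2.14% of all tested genes. All 31 log2 differences were below 0 in each of these 6 fits, and 20 of the 31 subunits were called in all 6. The median of the 31 ran from -1.26 to -1.04 over these fits. With all 6 samples, 46.1% of all tested genes had a log2 difference below 0. Rescaling each sample to its muscle markers moved the median of all tested genes to -0.61 and that of the 31 subunits to -1.83, and called 31 of 31 subunits beside 22% of all tested genes.

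Of the assembly factors and regulators, Pomp fell and the other 4 did not pass the test. Pomp (FBgn0032884, 2L:20787656-20789098) encodes the maturation protein that helps the core assemble. It had 2187, 2769 and 2858 scaled counts in tsr knockdown samples and 5179, 6534 and 5296 in controls, with no overlap and control replicate 2 the highest. Its log2 difference of -1.12 (SE 0.15, limma adjusted p = 0.0133) lay inside the range of the canonical subunits. The call was lost without tsr knockdown replicate 1 (adjusted p = 0.0583) and without control replicate 3 (adjusted p = 0.0504). Pomp shares 40.0% of its exon bases with vari, so its reads are uncertain.

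PI31 (FBgn0033669, 2R:11967343-11970115) and REG are proteins that bind the core. PI31, known in flies as a regulator of proteasome activity, had 1097, 1053 and 1216 scaled counts in tsr knockdown samples and 1365, 1619 and 1327 in controls. The groups did not overlap, but the log2 difference of -0.35 (SE 0.13) did not pass the limma test (adjusted p = 0.127), while DESeq2 gave an adjusted p of 0.0305. REG (FBgn0029133, X:13212325-13214408), the fly gene for an alternative, ubiquitin-independent core activator, had 2656, 2846 and 2454 in tsr knockdown samples and 3194, 1890.2 and 2521 in controls. The control values enclosed those of the tsr knockdown samples. The log2 difference of 0.10 had a 95% interval from -0.40 to 0.59 (limma adjusted p = 0.778), and it turned to -0.10 without control replicate 2.

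The transcription factor genes cnc and maf-S did not pass the test. cnc (FBgn0262975, 3R:23185580-23226711), counted over all its isoforms, had 10145, 9708 and 16855 scaled counts in tsr knockdown samples and 18189, 19181 and 18737 in controls. Replicates 1 and 2 of the tsr knockdown were well below the controls, and replicate 3 was close under them. The log2 difference was -0.66 with a 95% interval from -1.21 to -0.11 (SE 0.23, limma adjusted p = 0.115). Without tsr knockdown replicate 3 it was -0.91 (adjusted p = 0.0172), and DESeq2 on all 6 samples gave an adjusted p of 0.0496. maf-S (FBgn0034534, 2R:20640976-20641668), the small Maf partner of CncC, had 701, 737 and 786 in tsr knockdown samples and 647, 768 and 634 in controls, and the groups overlapped. Its log2 difference was 0.12 with a 95% interval from -0.20 to 0.44 (limma adjusted p = 0.569). After rescaling to the muscle markers, both REG and maf-S turned negative, at -0.58 and -0.55.

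**Figure D3:**
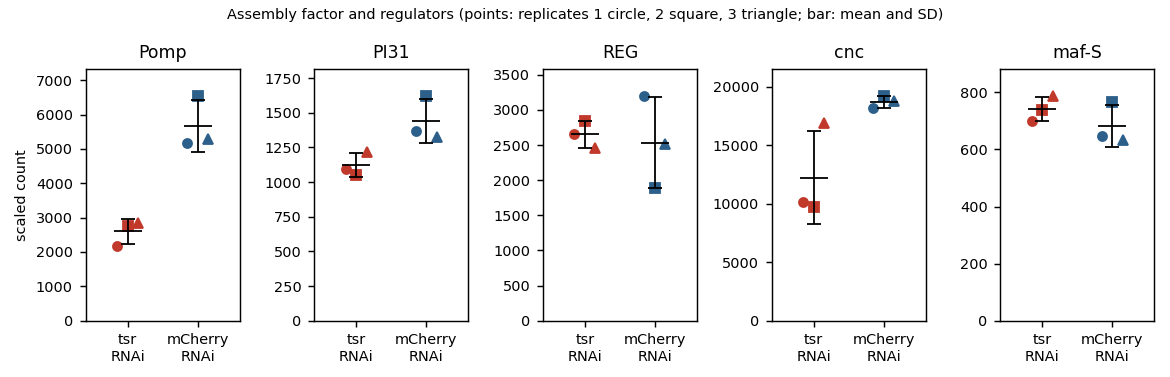
Scaled counts of Pomp, PI31, REG, cnc and maf-S in each tsr knockdown (red, left) and control (blue, right) sample, with group mean and SD over 3 samples. Pomp is separated widely between the groups, REG and maf-S overlap, and cnc has 1 tsr knockdown sample at 16855 and the other two below all controls by a wider margin.

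Genes that work with the proteasome were examined as a list of 18 partners: 10 fell and 0 rose, beside 7.02% and 4.58% of all tested genes, and their median log2 difference was -0.64. Those called included the small lid component Sem1, with 1692, 2052 and 2134 scaled counts in tsr knockdown samples and 4915, 5094 and 4277 in controls. Sem1 did not overlap between the groups (log2 difference -1.28, SE 0.13, limma adjusted p = 0.00693). Usp14, a deubiquitinase that docks on the regulatory particle, had 3109, 3758 and 3828 in tsr knockdown samples and 8258, 8806 and 7986 in controls. The Usp14 groups were far apart (log2 difference -1.23, SE 0.12, limma adjusted p = 0.00543). TER94, the fly p97 ATPase that extracts ubiquitinated proteins from complexes, had 12017, 14089 and 14523 in tsr knockdown samples against 28449.7, 34706 and 30586 in controls. Its log2 difference was -1.21 (SE 0.13, limma adjusted p = 0.00807), also without overlap. Of the 10 partners that fell, these 3 had the largest log2 differences.

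Txl, a thioredoxin-like protein that binds the proteasome in human cells, had a log2 difference of -1.03 (limma adjusted p = 0.0101). Uch-L5, the second deubiquitinase of the particle, had -0.92 (adjusted p = 0.0125), and the p97 cofactor Ufd1-like had -0.85 (adjusted p = 0.0161). The shuttle factors Rad23 and Ubqn, which carry ubiquitinated proteins to the proteasome, had -0.79 and -0.43 (adjusted p = 0.0122 and 0.039). Npl4, another p97 cofactor, and rngo, a fly relative of the shuttle protein Ddi, had -0.48 and -0.77 (adjusted p = 0.0416 and 0.0429) and were named after their values were seen. Of the 6 fits that leave out 1 sample, the Txl call held in 6, those of Rad23 and Uch-L5 in 4, that of Ufd1-like in 3, that of rngo in 2, that of Npl4 in 1 and that of Ubqn in 0. Upper-quartile scaling also ended the calls of Npl4 and Ubqn (adjusted p = 0.0695 and 0.0715). Uba1, the enzyme that activates ubiquitin, did not pass at a log2 difference of 0.01 with a 95% interval from -0.23 to 0.25 (adjusted p = 0.945), and its sign turned under TMM scaling and under rescaling to the muscle markers. The ubiquitin genes Ubi-p5E and Ubi-p63E had -0.80 and -0.32 (adjusted p = 0.1 and 0.461), and the p97 cofactor p47 had -0.37 (adjusted p = 0.153). The number of partners called lower was 4 without tsr knockdown replicate 1, 5 without tsr knockdown replicate 2 and 5 without control replicate 3. Of all genes tested in those fits, 1.23%, 2.23% and 2.14% were called lower.

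A list of 12 measured antioxidant and detoxification genes, known as CncC targets in flies, did not move one way: 1 fell, 1 rose, beside 7.02% and 4.58% of all tested genes, and the median log2 difference was -0.16. GstD1, a glutathione transferase often used as a CncC reporter, had 21362, 27834 and 18566 scaled counts in tsr knockdown samples and 49167, 41130.5 and 52585 in controls. The groups did not overlap (log2 difference -1.09, SE 0.19, limma adjusted p = 0.0237), and the call held in 2 of the 6 fits that leave out 1 sample. It was lost without tsr knockdown replicate 1 or 3 and without control replicate 1 or 3. Cyp6a2, a cytochrome P450 of detoxification, had 661, 863 and 1323 in tsr knockdown samples and 35.6, 53.8 and 28.9 in controls. Each tsr knockdown value was far above each control (log2 difference 4.54, SE 0.36, limma adjusted p = 0.0034), and the call held in 6 of 6 such fits. The antioxidant enzyme genes Cat, Sod1, Trxr-1 and Jafrac1 had log2 differences of -0.29, -0.24, -0.08 and -0.28, and none of these 4 passed the limma test. The Sod1 groups did not overlap, and DESeq2 gave it an adjusted p of 0.00332. DESeq2 called 3 of the 12 lower and 2 higher, beside 1569 and 1258 of the 11720 tested genes. Rescaling to the muscle markers called 7 of the 12 lower, beside 22% of all tested genes.

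The 15 testis-type paralogs, expressed in the male germline of flies, were not called lower, unlike the canonical subunits. Their limma intervals were wide, and each covered -1.15, the median log2 difference of the canonical subunits. The tests thus cannot show whether the paralogs changed as the subunits did. By limma, 0 of 15 passed in either direction, beside 11.6% of all tested genes, and 0 reached an unadjusted p under 0.05. edgeR also called 0 of 15, and DESeq2 0 of the 13 to which it gave an adjusted p. In all 15 the groups overlapped, whereas 36.4% of all tested genes had groups that did not. Their sums were 1668, 1129 and 501 scaled counts in tsr knockdown samples and 150.0, 2673 and 102 in controls. Control replicate 2 was thus above all tsr knockdown samples and the other two controls below them, and it was the highest sample for 14 of 15 paralogs. No paralog was at 0 in a tsr knockdown sample, whereas 11, 0 and 6 of them were at 0 in control replicates 1, 2 and 3. A count of 0 allows up to 3 reads, counting error only.

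By level, Rpt6R led the paralogs, with 308, 282 and 151 scaled counts in tsr knockdown samples and 107, 462 and 37.9 in controls. Rpt3R had 297, 200.2 and 62.7 in tsr knockdown samples and 40.0, 308 and 53.3 in controls. In both, control replicate 2 was the highest of the 6 samples. Rpt4R had 303, 165 and 47.6 in tsr knockdown samples and 0, 239 and 1.81 in controls. Rpn12R had 172, 103 and 33.7 in tsr knockdown samples and 0, 228 and 1.81 in controls. Both were near 0 in control replicates 1 and 3, and Rpt4R was the paralog that peaked in tsr knockdown replicate 1. The beta paralog Prosbeta2R2 had 108, 64.3 and 25.6 in tsr knockdown samples and 0, 199.6 and 0 in controls, again highest in control replicate 2. The paralogs' limma log2 differences ran from 0.82 to 3.95 with SE from 0.90 to 2.19, and their median of 2.27 was -0.0024 with edgeR. Without control replicate 2, 11 of the 14 paralogs still tested were called higher, beside 19.5% of all genes tested in that fit. That sample was singled out partly by its testis genes, so these calls are not independent of the choice. When any other single sample was left out, 0 paralogs were called higher. Per kilobase, the median paralog reached 1.81%, 0.955% and 0.450% of its canonical counterpart in tsr knockdown samples 1 to 3, against 0%, 1.502% and 0.0115% in control samples 1 to 3. The highest such share was 8.83%, for Rpn12R in tsr knockdown replicate 1.

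Markers of testis had the same order of samples by their sum. The 14 markers summed to 8181, 6000.2 and 5253 scaled counts in tsr knockdown samples and 3105, 12797 and 2280.2 in controls, and 0 of 14 passed the test. Among them, betaTub85D, the testis tubulin, had 794, 535 and 338 in tsr knockdown samples and 7.78, 2388 and 18.1 in controls. In control replicate 1 the markers dj, aly and nht were at 0, in control replicate 3 nht was at 0, and in the other 4 samples no marker was. Their part in the paralog values was not tested.

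**Figure D4:**
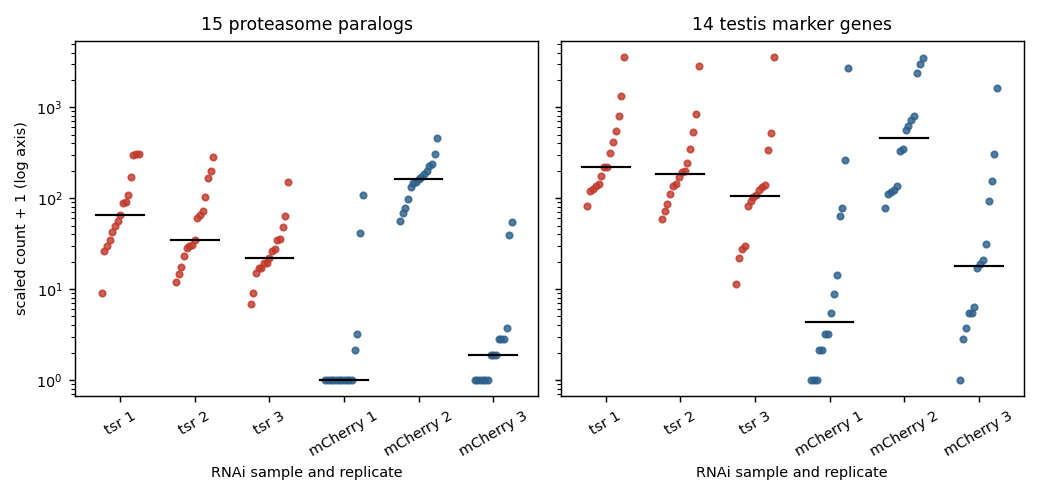
Scaled count plus 1 (log axis) of the 15 proteasome paralogs (left) and 14 testis marker genes (right) in each tsr knockdown (red) and control (blue) sample, with 1 point per gene and a bar at the median. Control replicate 2 holds the highest paralog median, and control replicates 1 and 3 the lowest.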

How the data were processed

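The members, gene lists and tests were chosen with earlier results of these data known. Scaled counts (unit: signal) were deposited as 1 table with a column per sample, and STAR 2.5.0a, Picard, HTSeq 0.5.3 and dm6 are named for them, per the submitters' processing notes. Their roles and settings, and the strand setting, are not given in the sources used here. All values (100% within 0.01 of a whole number) were whole reads times 1 step per sample, so reads could be recovered from the deposited signal. Rows outside genes (not uniquely aligned 2.27% to 8.60%, ambiguous 2.36% to 3.20%, no feature 7.77% to 9.84%, not aligned 3.39% to 7.56% of the rows' and genes' total) were left out. The share not uniquely aligned was 3.16%, 3.08% and 2.27% in tsr knockdown samples and 4.91%, 8.60% and 4.80% in controls, without overlap. The other shares overlapped between the groups. The part of this difference in the results was not tested. The labels mention no molecular identifiers, so reads may not be independent molecules.

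limma 3.58.1 (R 4.3.3; lmFit, eBayes with trend) tested log2(scaled count + 1) over the 11720 genes with a mean of at least 10, with Benjamini-Hochberg adjustment over all of them, two-sided, threshold 0.05. All 51 members passed this filter, and 14 of the 15 paralogs did without control replicate 2. On this scale the fold of low genes depends on the added 1. The recovered reads were tested with edgeR 4.0.16 (quasi-likelihood) and DESeq2 1.42.0 as alternatives, beside other pseudocounts (0.5 and 5), filters (none, and a mean of 50), scalings, a replicate block and leaving out each sample. Exon lengths and positions came from an Ensembl annotation in dm6 coordinates, matched by FlyBase identifier for 13478 genes. Values per sample are given for tsr, the most and least changed subunit of each class, the 5 paralogs of highest mean and the 5 regulators. From the pathway lists, genes that passed (at most 8 a list, by p) and up to 4 others by mean are named, and per-sample values are given for 5 of them, chosen after their values were seen. Promoter motifs and sequences are not analysed here.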

Additional observations from a re-analysis of the deposited data

How the results depend on the processing

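The 31 canonical subunits kept 31 calls under 11 of the 12 alternatives on all 6 samples, the exception being the replicate block, with medians from -1.83 to -1.06. The labels do not say whether replicate numbers pair samples across the groups. Deviations of same-numbered samples from their group mean correlated at -0.46, -0.032 and 0.19. With 3 samples a group, these correlations cannot settle whether samples were paired. With the replicate number as a block, 88 genes were lower and 24 higher, with 5 of the 31 subunits called, 0 alpha, 0 beta, 0 Rpt and 5 Rpn, 0 regulators, 1 partner and 0 CncC targets lower.

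Rescaling to the muscle markers gave 2579 genes lower and 186 higher, medians of -1.71 (alpha), -1.65 (beta), -1.91 (Rpt), -1.92 (Rpn), -1.83 (31 subunits) and -1.03 (regulators), 3 regulators and 7 CncC targets called lower, and -0.58 for REG, -0.55 for maf-S and -0.66 for Uba1. DESeq2 gave 1569 lower and 1258 higher, 3 regulators lower, and 3 CncC targets lower and 2 higher. edgeR with DESeq2 size factors gave 340 higher. Among paralogs, signs turned under the count tests. edgeR with TMM, edgeR with DESeq2 size factors and DESeq2 gave -0.067, -0.046 and -0.048 for Prosbeta2R1, -0.97, -0.95 and -0.95 for Prosbeta4R2, -0.88, -0.85 and -0.86 for Prosalpha6T, -0.13, -0.11 and -0.11 for Prosbeta5R1, and -1.03, -0.99996 and -1.01 for Prosalpha3T. The same tests gave -1.21, -1.18 and -1.18 for Prosbeta5R2 and -0.74, -0.71 and -0.71 for Prosalpha4T1, to which DESeq2 gave no adjusted p. edgeR with TMM gave -0.0024 for Prosbeta2R2 and for the paralog median. Uba1 was -0.0086 with TMM scaling and -0.0098 with edgeR and TMM, and Trxr-1 was 0.0064 with upper-quartile scaling. The causes were not tested.

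Leaving out 1 sample at a time gave 144 to 887 genes lower and 41 to 2222 higher, 4 to 6 alpha, 3 to 7 beta, 4 to 6 Rpt and 9 to 12 Rpn subunits called, 0 to 2 regulators and 4 to 9 partners lower, 0 to 2 CncC targets lower and 1 to 2 higher, and 0 to 11 paralogs higher. Signs turned for REG (-0.10 to 0.28), Prosbeta4R2 (-0.33 to 3.29), Prosalpha3T (-0.052 to 1.14), Uba1 (-0.021 to 0.034) and Jafrac1 (-0.52 to 0.060), and Uba1 was -0.018 without tsr knockdown replicate 3. Over the member and setting pairs on 6 samples that could be compared, 549 kept call and direction, 27 lost the call, 4 gained one and 22 turned sign. Pairs in which a paralog was filtered out or had no adjusted p were not counted. With 3 samples a group, differences smaller than the replicate spread could not be detected.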

Other observations

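Control replicate 2 stood apart beyond the paralogs and testis markers. The cuticle-tanning gene ple had 173, 329 and 34.8 scaled counts in tsr knockdown samples, against 1323, 276099 and 176 in controls. The ecdysone-response genes Eip78C and Hr4 were also far higher in that sample, Eip78C with 39.9, 32.1 and 65.0 in tsr knockdown samples against 109, 10218 and 79.4 in controls, and Hr4 with 70.8, 59.7 and 97.6 in tsr knockdown samples against 156, 3085 and 83.0 in controls.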
